A study of Arabidopsis thaliana with 6 samples.

Results

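The autophagy genes described here are the probe sets whose single gene in the array annotation has a symbol made of ATG and a number. The rule found 8 probe sets among the 22810 on the array, 13513 of which have 1 gene in that annotation. They stand for 8 of the 13356 genes that have such a probe set, ATG3 and 7 ATG8 paralogues, ATG8B, ATG8C, ATG8D, ATG8E, ATG8F, ATG8G and ATG8H, each with 1 probe set. None of the 8 carries the suffix by which the array's maker marks probe sets that match several transcripts. A further 2 paralogues of the same family are on the array under the older symbols APG8A and APG8H and are given beside the members.

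Autophagy carries parts of the cytoplasm to the vacuole inside double-membraned vesicles. ATG8 is a small protein related to ubiquitin that is trimmed by the protease ATG4, activated by ATG7 and joined by ATG3 to the membrane lipid phosphatidylethanolamine, after which it coats the growing vesicle and binds cargo receptors. Yeast has a single ATG8 gene, whereas plants have a family. In Arabidopsis, ATG8H and the protein of the locus listed here as APG8H, also called ATG8I, end in the glycine that takes the lipid and need no trimming, while the other paralogues are made with extra residues after it. Transcripts of ATG8 genes are known to rise in leaves under carbon or nitrogen starvation and during senescence.

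The samples are Arabidopsis thaliana plants grown on soil and harvested whole, with rinsed roots, 3 labelled as an rli T-DNA insertion mutant and 3 as wild type (WT), each hybridised to 1 one-colour Affymetrix ATH1 array. RLI (ABCE) is an ATP-binding protein that separates ribosomal subunits after translation, and the study is titled as one of RNA stability, although the arrays give levels and not decay. The rli plants carry the developmental stage label 1.14 weeks and the WT plants 3.20 weeks, so genotype and labelled stage cannot be told apart. Despite the unit in the label, it is uncertain whether either value is a time since sowing or instead numbers a step of development. No difference in plant age is therefore read from the labels. Both groups share the source name Co-1 and the stock code N1084, and the labels do not say whether the insertion is in the same background or whether replicates came from separate plants, so each p-value reflects the spread of these arrays alone, which may be technical.

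Values are MAS5 intensities, a linear brightness per probe set, and differences are rli minus WT on the log2 scale, given as the estimate ± its standard error in limma, with n = 3 arrays per group. Adjusted p-values are those of limma after the Benjamini-Hochberg procedure on all 13648 probe sets tested. Probe sets bind with different strength, so intensities of different genes are not compared. In bulk RNA, fewer cells of a type and less RNA per cell cannot be told apart. With 3 arrays a group, precision is limited throughout.

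Some facts of the arrays bear on all results. Of the 3 RLI loci, 0 had a probe set with 1 gene in the annotation, so the genotype labels were not checked by RLI levels. WT replicate 3 was the array least like the others (Pearson's r of 0.75 to 0.80 with each of them, over all log2 values), and it had the highest mean log2 ratio of 3' over 5' control probe sets (2.83, against 2.39 to 2.68 on rli arrays and 2.11 and 2.40 on the other WT arrays). Its 25S ribosomal RNA probe set also read highest, at 1927, against 863.1 to 1319 on rli arrays and 285.2 and 344.3 on the other WT arrays. Among organ markers, 1 of 5 for leaf, 2 of 5 for root and 0 of 5 for flower had a probe set with 1 gene. The leaf marker RCA read 4079 to 5571 in rli and 5613 to 6301 in WT, and the root markers PYK10 and XTH26 summed to 1076 to 1265 in rli and 873.4 to 1138 in WT. XTH26 alone stayed at or under 18.1 on every array. The part of these values in the results below was not tested.

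ATG8E and ATG8H fell in rli, each to near 50% of its WT level, while the other 5 members of the ATG8 family and ATG3 did not pass the test. All 8 probe sets lay above the filter on dim signals. The members called were thus 2 of 8, both lower, against 6.8% of all tested probe sets called in either direction, 2.53% called lower and 4.27% called higher. Of the 8, 3 had an unadjusted p below 0.05, against 21.1% of all tested probe sets. A lower mean in rli was found for 5 of the 8, against 46.7% of all tested probe sets. The median difference was -0.22, against 0.04 over all tested probe sets.

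ATG8E (AT2G45170) read 260.2, 342.8 and 254.1 on rli replicates 1 to 3, against 489.7, 672.9 and 558.2 on WT replicates 1 to 3. Every rli array was below every WT array, and replicate 2 was the highest of both groups. The mean was 285.7 ± 49.5 in rli and 573.6 ± 92.6 in WT (SD, n = 3 each), and ATG8E fell by 1.01 ± 0.21 on the log2 scale (limma adjusted p = 0.020, 95% interval of the difference -1.48 to -0.54). In rli it stood 50.2% lower. Only 2.43% of the tested probe sets had a lower difference.

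ATG8H (AT3G06420), 1 of the 2 paralogues made without a tail after the glycine, read 58.7, 48.7 and 65.7 in rli, against 94.9, 123.4 and 118.8 in WT. Again the groups did not overlap, although here replicate 2 was the lowest rli array and the highest WT array. The mean was 57.7 ± 8.54 in rli and 112.3 ± 15.3 in WT (SD, n = 3 each). ATG8H fell by 0.96 ± 0.22 on the log2 scale (limma adjusted p = 0.032, interval -1.46 to -0.46) and stood 48.7% lower in rli. Its rli values lay not far above the median intensities of the rli arrays, 38.2 to 46.4, and were not tested against background.

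ATG8D (AT2G05630) read 133.4, 179.5 and 145.1 in rli, against 215.6, 261.3 and 225.8 in WT. All rli arrays lay below all WT arrays, with replicate 2 highest in both groups, as for ATG8E. Its difference of -0.62 ± 0.20 did not pass (limma adjusted p = 0.10, interval -1.07 to -0.18). Its unadjusted p was 0.011, and no probe set with a difference as small as that of ATG8D was called, since the smallest called difference on the log2 scale was 0.70 in size. Without WT replicate 3 the difference was -0.65 and passed (limma adjusted p = 0.045), where 6.56% of all tested probe sets were called lower.

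**Figure D1:**
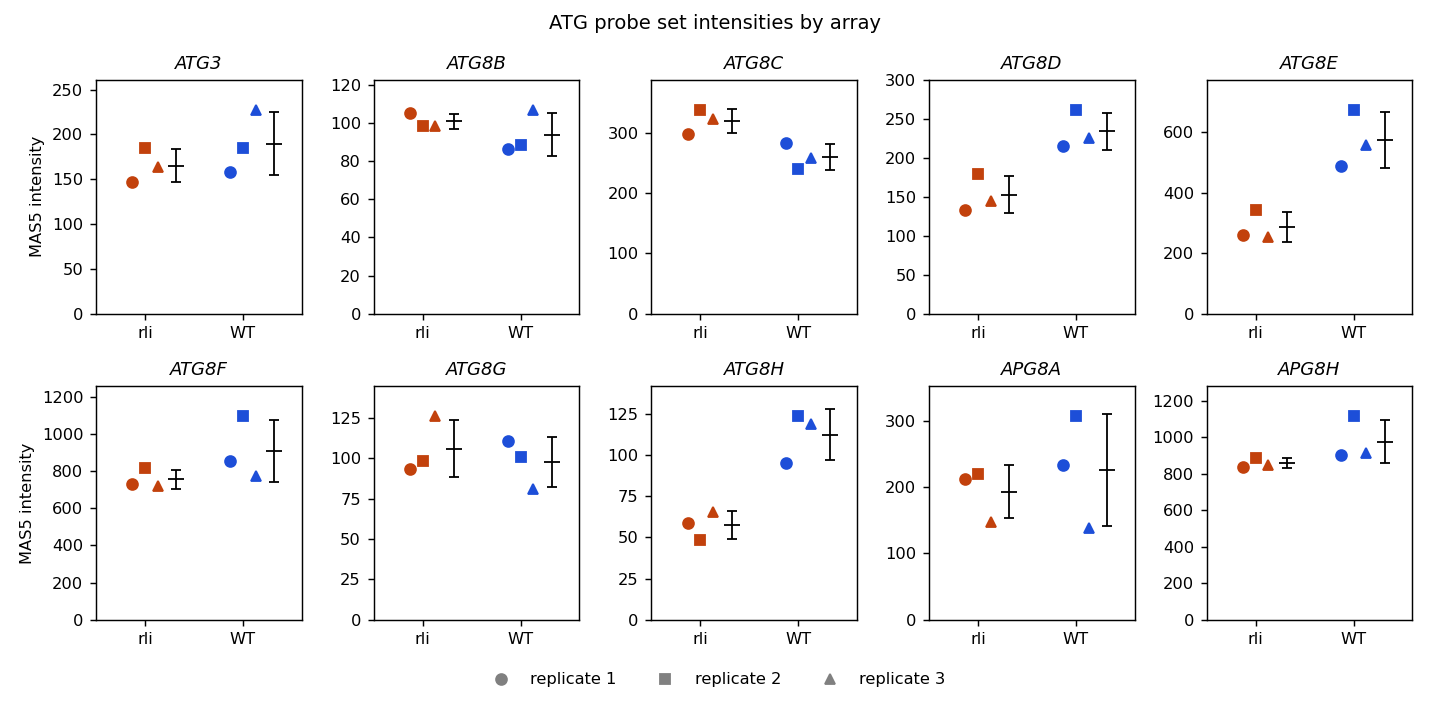
MAS5 intensity (linear axis from 0) of the 8 ATG probe sets and of APG8A and APG8H on each array, rli left and WT right, with the marker shape giving the replicate and the bar the mean ± SD of 3 arrays. ATG8D, ATG8E, ATG8H and APG8H have all rli arrays below all WT arrays and ATG8C has all rli arrays above them.

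ATG8C (AT1G62040) was the paralogue with the highest difference. It read 297.4, 337.4 and 322.4 in rli, against 282.7, 239.8 and 258.3 in WT. The groups did not overlap, with rli higher, but the gap between the lowest rli and the highest WT array was small. The difference of 0.30 ± 0.18 did not pass (limma adjusted p = 0.40), and its interval ran from -0.11 to 0.70. Groups without overlap were thus found for 4 of the 8 probe sets, 3 lower and 1 higher in rli, against 28.1% of all tested probe sets, with 12.9% lower and 15.2% higher.

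ATG8F (AT4G16520) read 732.1, 815.4 and 717.4 in rli, against 853.5, 1093 and 774.3 in WT, and the groups overlapped. Its difference was -0.25 ± 0.20 (limma adjusted p = 0.53). ATG8B (AT4G04620) and ATG8G (AT3G60640) had the smallest differences of the family. ATG8B read 105.4, 98.5 and 98.7 in rli, against 86.6, 88.3 and 106.8 in WT, where replicate 3 alone lay above the rli range. ATG8G read 93.6, 98.3 and 126.0 in rli, against 110.9, 101.2 and 80.8 in WT. Replicate 3 of ATG8G was the highest rli array and the lowest WT array. The differences were 0.11 ± 0.20 for ATG8B and 0.12 ± 0.22 for ATG8G (limma adjusted p = 0.82 for each), with intervals of -0.33 to 0.55 and -0.38 to 0.61, and that of ATG8G turned to -0.01 without WT replicate 3 or without rli replicate 3.

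ATG3 (AT5G61500), the enzyme that passes ATG8 to its lipid, was the 1 member that is no ATG8. It read 147.5, 184.4 and 163.4 in rli, against 157.9, 184.5 and 227.1 in WT, and the groups overlapped. Its difference was -0.19 ± 0.21 (limma adjusted p = 0.68, interval -0.66 to 0.28).

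APG8A (AT4G21980, also named ATG8A) and APG8H (AT3G15580, which the gene table names both ATG8I and AUTOPHAGY 8H) complete the family. APG8A read 211.9, 219.7 and 146.9 in rli, against 233.4, 306.7 and 138.9 in WT. It had the widest spread of the 9 paralogues, with replicate 3 lowest in both groups, and its difference was -0.18 ± 0.30 (limma adjusted p = 0.81), turning to 0.08 without WT replicate 2 and 0.01 without rli replicate 3. APG8H, which like ATG8H is made without a tail, read 836.4, 888.8 and 846.5 in rli, against 901.2, 1114 and 913.8 in WT. Its groups did not overlap, but the difference of -0.18 ± 0.18 did not pass (limma adjusted p = 0.64). The interval of the difference ran from -0.85 to 0.49 for APG8A and from -0.59 to 0.22 for APG8H.

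**Figure D2:**
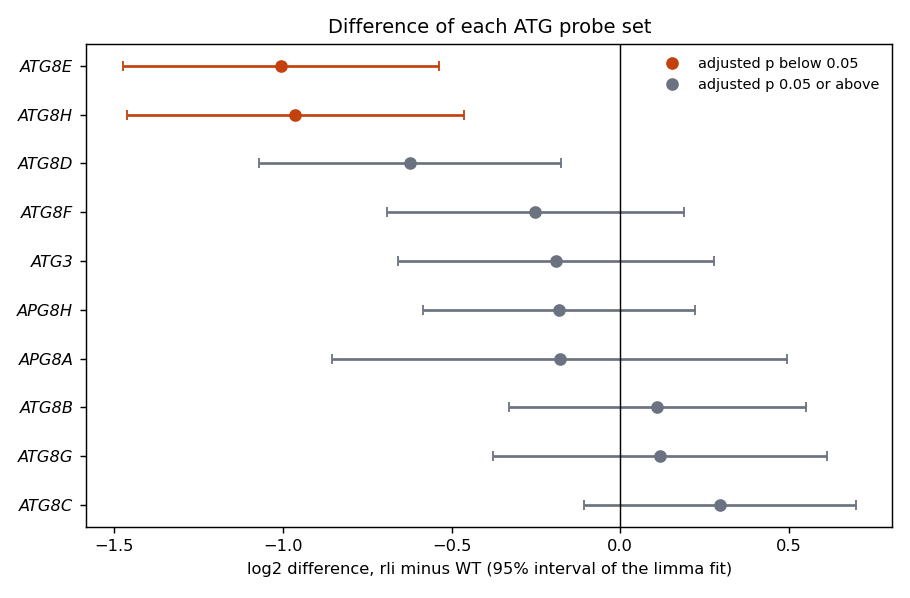
Log2 difference of rli minus WT with its 95% interval from limma for each of the 8 ATG probe sets and the 2 paralogues under older symbols, lowest at the top. ATG8E (-1.01) and ATG8H (-0.96) passed an adjusted p of 0.05, the interval of ATG8D also lies below 0, and the other intervals include 0.

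The arrays of a group differed little from each other for the members. The SD within groups, pooled over both groups on the log2 scale, lay between 0.11 (ATG8C) and 0.24 (ATG8E), against a median of 0.33 over all tested probe sets. That median was not limited to probe sets of like intensity, so a low spread was not shown to be particular to these genes. Among the members, the rli arrays of ATG8B were closest together, with an SD of 0.06 on the log2 scale.

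Whether the paralogues moved unlike each other was asked within each array, where the scaling of the array cancels. For each of the 7 ATG8 members, the mean log2 value of the other 6 was subtracted. Because each paralogue enters the mean of the others, these shifts depend on each other. Lower values of ATG8E, ATG8H and ATG8D lower the mean that is subtracted from the rest, which raises the relative values of the rest. Relative to the others, ATG8E shifted by -0.79 and ATG8H by -0.74 in rli, ATG8D by -0.34 and ATG8F by 0.09. ATG8C shifted by 0.73, ATG8G by 0.53 and ATG8B by 0.51. For 6 of the 7 paralogues, all but ATG8F, the rli and WT arrays did not overlap, which gives an exact two-sided permutation p of 0.1, the smallest that 3 against 3 allows, and 0.12 with Benjamini-Hochberg adjustment over the 7. The design therefore cannot reach the threshold of 0.05 for these shifts. By their own values ATG8B and ATG8G differed by only 0.11 and 0.12, with groups that overlapped. The count of 6 was not set against other groups of probe sets and is a description.

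For ATG8C the log2 value minus the mean of the others was 0.93, 0.99 and 0.95 on the rli arrays, against 0.44, -0.03 and 0.26 on the WT arrays. For ATG8E the relative values were 0.70, 1.02 and 0.55 in rli, against 1.36, 1.71 and 1.56 in WT. For ATG8H they were -1.81, -2.26 and -1.73 in rli, against -1.40, -1.14 and -1.05 in WT. In each case all 3 rli arrays lay on one side of the 3 WT arrays.

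**Figure D3:**
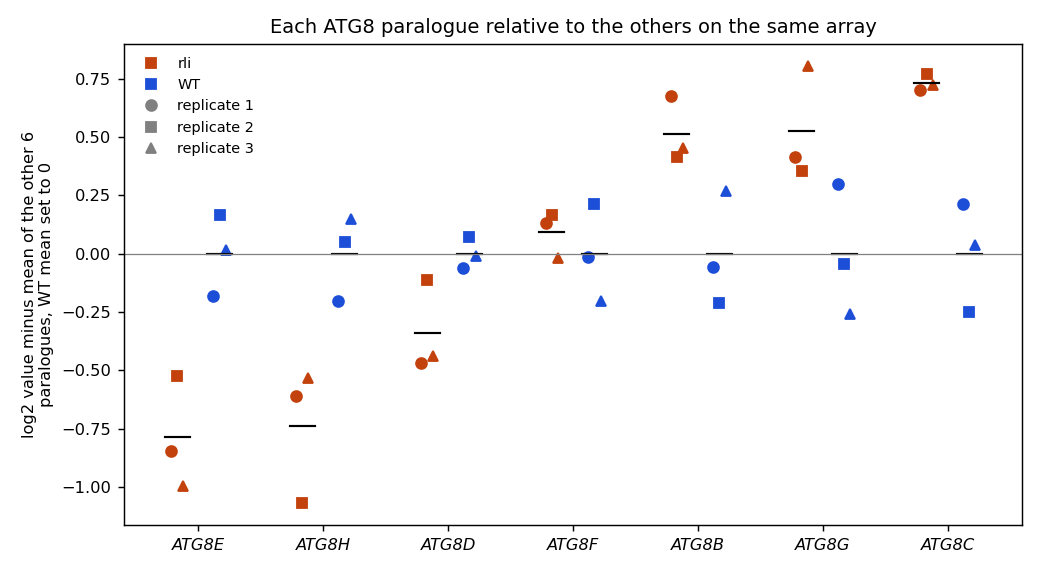
Log2 value of each of the 7 ATG8 members minus the mean of the other 6 on the same array, with the WT mean set to 0, rli left and WT right of each name, and short lines for group means. ATG8E, ATG8H and ATG8D lie lower in rli, ATG8B, ATG8G and ATG8C lie higher, and ATG8F overlaps.

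In pairs, a comparison added after the values were seen, the log2 ratio of 2 paralogues had separate groups in 14 of 21 pairs. The smallest p adjusted over the 21 pairs was 0.15 (exact two-sided permutation), so none passed. The pairs share paralogues and restate in part which members were lower, so the count of 14 is a description. The largest shift was that of ATG8C against ATG8E, whose log2 ratio averaged 0.17 ± 0.18 in rli and -1.13 ± 0.35 in WT (SD, n = 3 each), a shift of 1.30. The ratio of ATG8E to ATG8H averaged 2.31 ± 0.45 in rli and 2.35 ± 0.11 in WT, a shift of -0.04 that was within the spread (exact permutation p = 0.9). The ratio of ATG8D to ATG8E averaged -0.90 ± 0.08 in rli and -1.28 ± 0.09 in WT, and these groups did not overlap, so ATG8E lay lower relative to ATG8D in rli. Between the 2 paralogues without a tail, the log2 ratio of ATG8H to APG8H averaged -3.90 ± 0.26 in rli and -3.12 ± 0.16 in WT (SD, n = 3 each). That shift of -0.78 had groups that did not overlap and the smallest exact permutation p that 3 against 3 allows, 0.1.

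The calls of ATG8E and ATG8H depended on which arrays entered the fit and on how the values were processed. Over 17 alternative settings ATG8E passed in 12 and ATG8H in 8, always with a lower value in rli, and the difference ran from -1.15 to -0.89 for ATG8E and from -1.08 to -0.81 for ATG8H. ATG8E was not called without WT replicate 2 (limma adjusted p = 0.078), rli replicate 1 (0.11) or rli replicate 3 (0.11). ATG8H was not called without WT replicate 1 (limma adjusted p = 0.065), WT replicate 2 (0.12), rli replicate 1 (0.10), rli replicate 2 (0.11) or rli replicate 3 (0.075). With all arrays in the fit, ATG8E was not called after median centring (limma adjusted p = 0.17) or with no intensity trend (0.054). Nor was ATG8H called after median centring (limma adjusted p = 0.079), with no intensity trend (0.056), with a filter at the 20th percentile (0.051) or with none (0.059). Without WT replicate 3, the array that stood apart, ATG8E fell by 1.02 (limma adjusted p = 0.0050) and ATG8H by 0.92 (0.022).

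**Figure D4:**
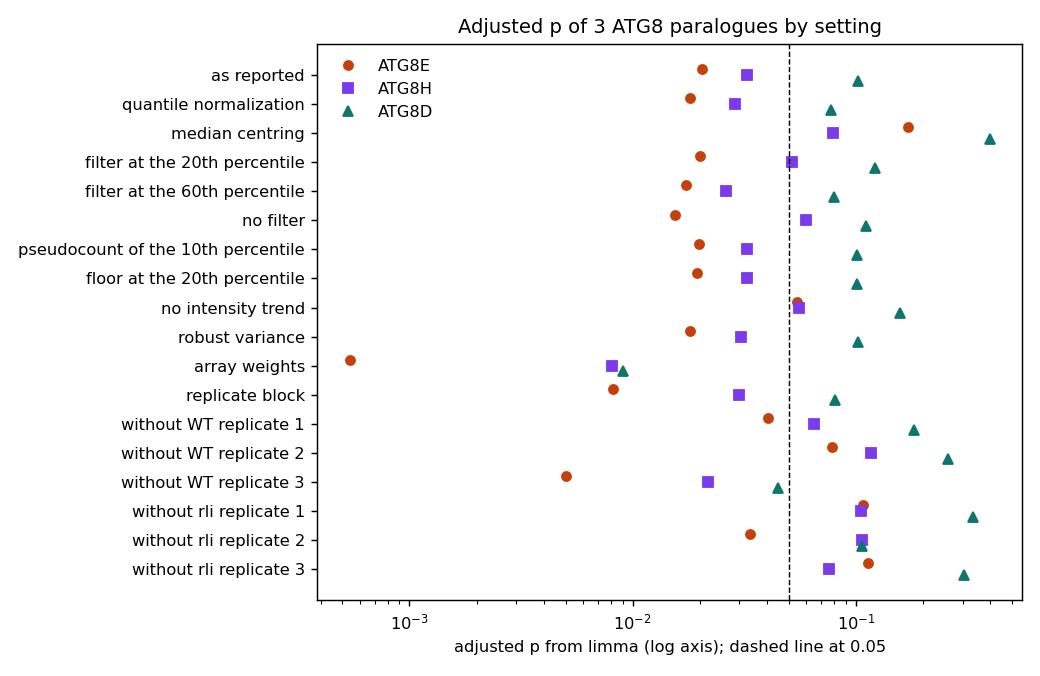
Adjusted p from limma (log axis) of ATG8E, ATG8H and ATG8D under the reported setting and the 17 alternatives, with a dashed line at 0.05. ATG8E lies below the line in 12 alternatives, ATG8H in 8 and ATG8D in 2.

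The probe sets most like ATG8E over the 6 arrays, among 1068 tested probe sets with 1 gene and a symbol, were those of ATG8D (Pearson's r = 0.99), the chitinase family gene CHI (0.97), the expansin EXPA8 (0.97), the methionine sulfoxide reductase MSRB6 (0.97) and the thioredoxin TO1 (0.96). The 6 points are the 2 groups of 3 arrays, so r mostly follows the difference between genotypes, and it is given as a description only. ATG8H had an r of 0.87 with ATG8E and ranked 52, and ATG8F had 0.79 and ranked 81. ATG8C had the lowest r with ATG8E among the paralogues, at -0.84.

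The autophagy lists held 66 loci, of which 29, the members included, had a probe set with 1 gene. This was so for 0 of 10 loci listed for ATG9 and ATG2-ATG18 lipid supply and 1 of 9 receptors and adaptors. It was also so for 2 of 6 loci of the PI3 kinase complex and 3 of 9 of ATG8 and ATG12 conjugation. Much of the pathway was therefore not seen. Of the other autophagy loci in the lists, 17 were tested outside the rule, each by its brightest probe set. Of these 2 rose and 0 fell, against 4.27% and 2.53% of all tested probe sets, and 3 had an unadjusted p below 0.05, against 21.1%. Both that rose were vacuolar processing enzymes, cysteine proteases that mature other proteins in the vacuole, where autophagic vesicles end. They were the 2 tested loci of the list of vacuolar proteases. No tested locus outside the rule in the other autophagy lists was called. GAMMA-VPE (AT4G32940), the form of vegetative organs, read 2984, 3195 and 2557 in rli, against 1220, 1175 and 1024 in WT. All rli arrays lay above all WT arrays, and GAMMA-VPE rose by 1.35 ± 0.19 (limma adjusted p = 0.0026), or 2.55-fold. BETA-VPE (AT1G62710), known for processing storage proteins of seeds, read 135.6, 179.1 and 129.1 in rli, against 22.9, 22.9 and 46.1 in WT. It rose by 2.34 ± 0.31 (limma adjusted p = 0.0024), but 2 of its 3 WT values lay under the filter level of 24.7 and were not shown to be above background, so the size of the rise is uncertain. ALPHA-VPE and DELTA-VPE were under the filter and were not tested.

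Of the 9 loci listed for the TOR and SnRK1 kinases, which govern autophagy, 4 had a probe set with 1 gene and 3 were tested. These were RAPTOR1, AKINBETA1 and AT4G16360, none of them a catalytic subunit, so the kinases themselves were not measured here. Of the 3, 0 passed the threshold in limma, against 6.8% of all tested probe sets, and 1 had an unadjusted p below 0.05, against 21.1%. RAPTOR1 (AT3G08850), the protein that presents substrates to the TOR kinase, an inhibitor of autophagy, read 78.9, 79.3 and 68.9 in rli, against 44.1, 40.7 and 60.8 in WT. The groups did not overlap, but the difference of 0.66 ± 0.25 did not pass (limma adjusted p = 0.16). Without WT replicate 3, whose value was the highest of WT, it was 0.83 and passed (0.032). AKINBETA1 (AT5G21170), a regulatory subunit of SnRK1, the energy-sensing kinase that promotes autophagy, read 228.3, 188.9 and 157.1 in rli, against 249.0, 355.1 and 170.1 in WT, with a difference of -0.38 ± 0.28 (limma adjusted p = 0.50). AT4G16360, which the gene table also names KINbeta2, stood at 0.16 ± 0.23 (limma adjusted p = 0.77), and RAPTOR2 was under the filter.

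**Figure D5:**
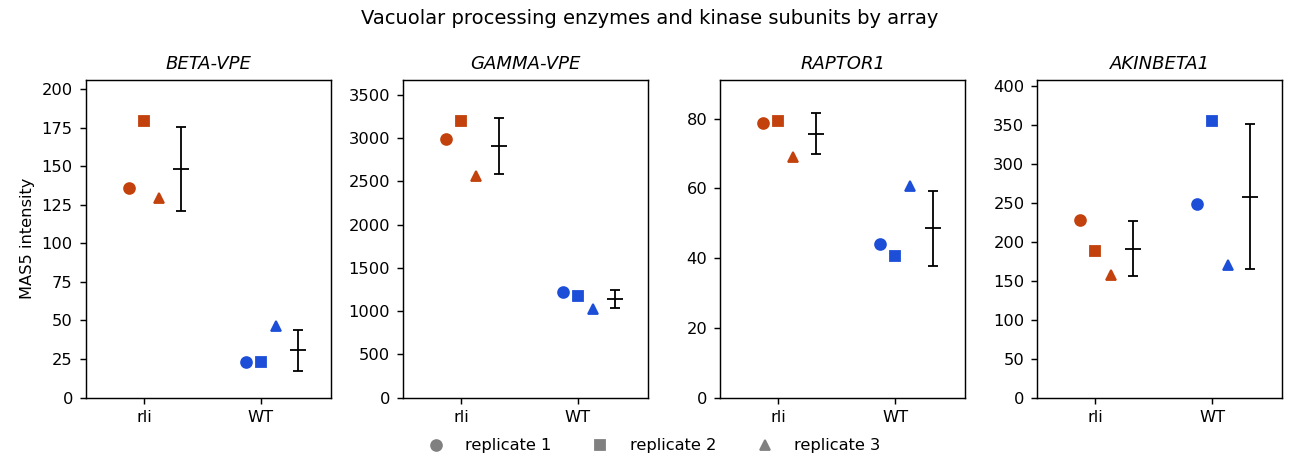
MAS5 intensity (linear axis from 0) of 2 vacuolar processing enzymes and 2 kinase subunits on each array, rli left and WT right, with the mean ± SD of 3 arrays. All rli arrays lie above all WT arrays for BETA-VPE, GAMMA-VPE and RAPTOR1, and the groups overlap for AKINBETA1.

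AT5G66930, which the gene table also names ATG101, a subunit of the kinase complex that starts the vesicle, read 49.5, 46.5 and 66.8 in rli, against 59.7, 58.2 and 93.2 in WT. Replicate 3 was the highest in both groups, and the difference was -0.36 ± 0.28 (limma adjusted p = 0.53). A further 9 tested loci of the lists carry only a locus number in both tables and, apart from AT2G37840, are not named. By their brightest probe sets 0 of these passed in limma, with 0 below an unadjusted p of 0.05, and their differences lay between -0.27 and 0.32. The brightest probe set of AT2G37840 stood at 0.21 (limma adjusted p = 0.71) and a dimmer one at -0.56 (limma adjusted p = 0.60).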

How the data were processed

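The 6 arrays hold linear probe set intensities that the authors made with MAS5 and GCOS and deposited, per the submitters' processing notes. Tool versions and detection calls were not used here. After trimming 2% of probe sets at each end, the mean intensity was 100.01 on all arrays, so the deposited intensities were taken to log2 without further scaling. Control probe sets were left out. The 13648 probe sets with a mean log2 value at or above the 40th percentile were tested.

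The test was that of limma 3.58.1 (R 4.3.3): a linear model with genotype as its sole term, an intensity-dependent prior variance, two-sided p-values and Benjamini-Hochberg adjustment over all tested probe sets, with a threshold of 0.05. The script was tested on simulated data, where recovery of changed probe sets was required only at a size above any difference given here. Ratios between paralogues on the same array were compared with exact permutation tests (SciPy 1.17.1).

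The members and lists were chosen with earlier results of these data known. All members were named, and of each pathway list the loci past the threshold or, where none was, those with the smallest p. The 10 loci that both tables list by number alone were counted and, apart from AT2G37840, not named. The alternatives were other scalings, filters, low-value treatments and variance models, weighting of arrays, a block for replicate number, and each array left out.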

Additional observations from a re-analysis of the deposited data

How the results depend on the processing

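Of the 928 changed probe sets in all, median centring left 332, a constant prior variance (no intensity trend) 593, and array weights gave 3181. Leaving out each array in turn gave 389 to 2085, the highest without WT replicate 3. The 2 called ATG probe sets became 0 after median centring or with no intensity trend. They became 1, ATG8E, under a lower filter (20th percentile) or none. Leaving out each array gave 0 to 3. The cause was not tested, though fewer arrays lower the degrees of freedom. ATG8D joined ATG8E and ATG8H with array weights (limma adjusted p = 0.0090) and without WT replicate 3. The 2 called pathway loci became 1 after median centring, which left BETA-VPE, and 4 with array weights, and leaving out each array gave 2 to 3. With each array left out, the difference of ATG8G ran from -0.013 to 0.22, that of APG8A from -0.50 to 0.076, that of AT4G16360 from -0.025 to 0.27 and the relative shift of ATG8F from -0.0077 to 0.20, and AT4G16360 stood at -0.00026 with array weights. None of these passed in any setting. Quantile normalization left 5 paralogues with separate relative groups, and including APG8A and APG8H, chosen after seeing the data, gave 7 of 9. Each paralogue had 1 probe set, so averaging probe sets changed nothing. With the replicate block, the same 2 ATG probe sets were called, and 1300 probe sets in all. Arrays that share a replicate number deviated from their group means with correlations of -0.09, 0.33 and 0.32, so the numbers were not taken as pairs. Signal over background was not assessed, since no detection calls were used. The dimmest member value, 48.7 for ATG8H on rli replicate 2, lay above the filter level of 24.7. That level is a percentile over the probe sets and no estimate of background.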
